A study of Mus musculus with 6 samples.

Results

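Levels of 10 genes of protein phosphatase 1 (PP1) were compared in heart ventricle RNA, out of 20145 genes named on the array. They are the catalytic subunits Ppp1ca, Ppp1cb and Ppp1cc, the glycogen-targeting subunits Ppp1r3a, Ppp1r3c and Ppp1r3d, and the inhibitors Ppp1r1a, Ppp1r1b, Ppp1r2 and Ppp1r14c. All non-control probes whose RefSeq accession belongs to one of these genes were taken, which gave 16 probes for 10 genes.

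Adult male C57bl/6j mice, 11 to 12 weeks old, gave ventricle tissue in groups of 3. Tead1 icKO mice were homozygous for floxed Tead1, carried Myh6-CreER, in which a cardiomyocyte promoter drives a Cre that tamoxifen switches on, and received tamoxifen. Control mice carried floxed Tead1, received tamoxifen as well, and are given with no Cre in the labels, so the effect of Cre itself cannot be told apart from that of the deletion. The recombinase acts in cardiomyocytes, whereas the RNA came from whole ventricle with all its cell types. Tead1 encodes a DNA-binding factor of the Hippo pathway. The arrays are numbered icKO 1 to 3 and control 1 to 3, 1 mouse each as the labels' biological replicates.

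PP1 is a serine/threonine phosphatase whose catalytic subunit finds its substrates through partner proteins. Glycogen-targeting subunits bring it to glycogen synthase and phosphorylase, and inhibitor proteins hold it in check, some of them mainly when phosphorylated by protein kinase A or C. In heart muscle PP1 removes phosphate from phospholamban and other calcium-handling proteins and so opposes beta-adrenergic signalling.

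Levels are log2 processed signals relative to each array's 75th percentile, so a level of 0 is that percentile and a difference of 1 is a doubling. Arrays within a group correlated at 0.987 to 0.992 and arrays of different groups at 0.947 to 0.958. All 6 arrays shared 1 slide. The icKO arrays lay in slide columns 2, 3 and 3 and control arrays in columns 1, 1 and 2, so slide column and genotype can hardly be told apart. The brightest Tead1 probe stood at 3.66, 3.44 and 3.46 in icKO arrays and 4.01, 3.79 and 3.96 in control arrays, a difference of -0.40 ± 0.11 (SE, limma adjusted p = 0.0304; 0.0858 to 0.0901 without control 1, control 3, icKO 2 or icKO 3). That difference was -0.24 (adjusted p = 0.186) with median scaling and 0.04 when arrays were scaled to bright spike-in controls. The other Tead1 probes differed by -0.43 (A_55_P2011390, adjusted p = 0.0202) and, with overlapping groups, by -0.19 (A_55_P2159885, adjusted p = 0.250), and the sources used here do not say whether any of them lies in the deleted exons.

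Of the 9 PP1 genes measured above background in at least 1 group, 7 passed an adjusted p of 0.05, 2 higher and 5 lower in icKO ventricles. Ppp1r3c and Ppp1r2 rose, and Ppp1r3a, Ppp1r3d, Ppp1r1b, Ppp1r14c and Ppp1cc fell. With probes required to be well above background on all 6 arrays, 8 genes were tested and 6 passed, 2 higher and 4 lower, Ppp1r1b having dropped out. Over all 22295 features tested, 44.8% passed, 16.0% higher and 28.7% lower. These features are 12981 named genes, each by its brightest kept probe, and unnamed probes taken singly. The share of PP1 genes is thus to be read against a ventricle in which a large part of the transcriptome passed. The groups did not overlap for any of the 9 genes, against 58.9% of all features. The 9 include Ppp1r1b, which was kept only through the control arrays, where it is higher, with 1 of 3 icKO arrays well above background. The median difference was -0.26 over the 9 genes and -0.14 over all features.

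**Figure D1:**
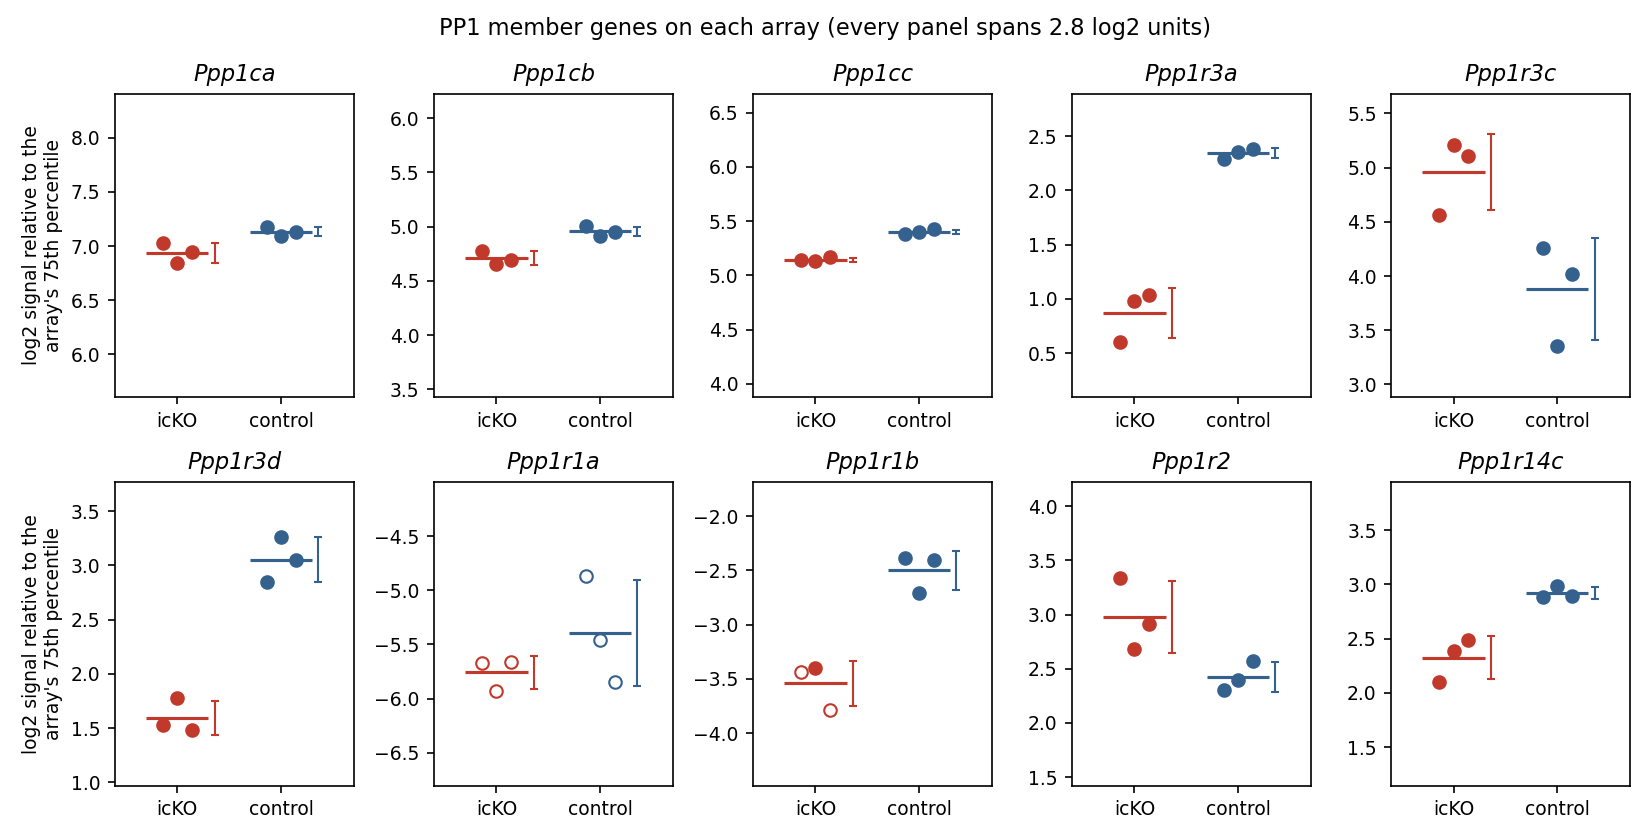
Each panel shows 1 PP1 gene on the 6 arrays as log2 signal relative to the array's 75th percentile, with icKO (red) left of control (blue), the line at the mean and the bar showing the SD (n = 3 each). Open points were not well above background; every panel spans 2.8 log2 units, so the drop of Ppp1r3a (-1.47) can be compared by eye with the small offset of Ppp1ca (-0.20).

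The glycogen-targeting subunits changed in opposite directions, Ppp1r3a and Ppp1r3d lower and Ppp1r3c higher in icKO. Ppp1r3a encodes the large striated-muscle subunit that ties PP1 to glycogen and the sarcoplasmic reticulum. Its level was 0.61, 0.98 and 1.03 in icKO arrays, against 2.29, 2.35 and 2.38 in control arrays. Every icKO array lay more than 1 log2 unit below every control array, and the difference was -1.47 ± 0.14 (SE, n = 3 each; adjusted p = 0.000637), or 2.77-fold lower.

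Ppp1r3d, a more widely expressed glycogen-targeting subunit, fell by nearly the same amount. It stood at 1.52, 1.78 and 1.48 in icKO arrays and at 2.85, 3.26 and 3.05 in control arrays. The groups were well separated, with a difference of -1.46 ± 0.14 (adjusted p = 0.000821), or 2.75-fold lower in icKO. Both calls held under all 20 alternatives run for each gene, with differences between -1.55 and -1.03 for Ppp1r3a and between -1.56 and -1.02 for Ppp1r3d.

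Ppp1r3c, known as protein targeting to glycogen, went the other way. Its level was 4.56, 5.21 and 5.10 in icKO arrays, against 4.26, 3.36 and 4.02 in control arrays. Control 2 was the lowest and icKO 1 the nearest to the control range, so the groups were separate but each was wide. The difference was 1.08 ± 0.28 (adjusted p = 0.0217), or 2.11-fold higher. The call was lost without icKO 2 (0.95, adjusted p = 0.0661) and without icKO 3 (1.01, adjusted p = 0.0674), while the direction held in all 20 alternatives.

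Differences between genes on the same array do not depend on a scale factor per array, such as the percentile, the median or the spike-in controls, although quantile normalization and background correction can move them. The log2 difference between Ppp1r3c and Ppp1r3a was 2.55 ± 0.30 larger in icKO than in control arrays, a 5.86-fold shift, and that between Ppp1r3c and Ppp1r3d was 2.54 ± 0.42 larger. Both pairs separated the groups completely (two-sided exact permutation p = 0.1, the smallest that 3 against 3 arrays can give, 0.121 adjusted over the 23 pairs compared). For Ppp1r3d against Ppp1r3a the shift was 0.01 ± 0.18 (exact p = 0.9). These pairs were chosen with the values known.

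The promoters of these subunits are shown because Ppp1r3a and Ppp1r3d fell together while Ppp1r3c rose, and because Tead1 is a DNA-binding factor. The promoter of the inhibitor Ppp1r14c is printed with them. Each runs 250 bases before to 50 bases after the gene start in RefSeq (GRCm38.p6), read 5′ to 3′ on the gene's strand. Capitals mark the core TEAD motif GGAATG or its reverse complement CATTCC. Ppp1r3a lies at chr6:14755225-14755524 (minus strand), Ppp1r3d at chr2:178414414-178414713 (minus strand), Ppp1r3c at chr19:36736555-36736854 (minus strand) and Ppp1r14c at chr10:3365900-3366199 (plus strand).
Ppp1r3a: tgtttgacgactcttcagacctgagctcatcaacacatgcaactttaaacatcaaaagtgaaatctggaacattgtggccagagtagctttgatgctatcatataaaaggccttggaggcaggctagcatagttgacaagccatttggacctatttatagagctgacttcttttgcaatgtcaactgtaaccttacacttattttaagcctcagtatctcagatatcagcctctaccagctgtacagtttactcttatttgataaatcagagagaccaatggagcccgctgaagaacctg
Ppp1r3d: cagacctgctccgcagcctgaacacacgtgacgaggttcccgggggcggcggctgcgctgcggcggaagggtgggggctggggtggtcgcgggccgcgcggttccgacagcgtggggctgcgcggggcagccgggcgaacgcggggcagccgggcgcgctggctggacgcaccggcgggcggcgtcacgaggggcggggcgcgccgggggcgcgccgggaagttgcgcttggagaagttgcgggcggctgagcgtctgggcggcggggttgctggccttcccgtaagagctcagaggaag
Ppp1r3c: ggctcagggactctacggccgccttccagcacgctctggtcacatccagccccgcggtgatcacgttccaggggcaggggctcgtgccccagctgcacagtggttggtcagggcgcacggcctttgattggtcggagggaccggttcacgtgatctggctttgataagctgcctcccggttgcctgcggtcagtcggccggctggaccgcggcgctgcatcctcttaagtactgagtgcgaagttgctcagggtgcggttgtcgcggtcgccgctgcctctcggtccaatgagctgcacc
Ppp1r14c: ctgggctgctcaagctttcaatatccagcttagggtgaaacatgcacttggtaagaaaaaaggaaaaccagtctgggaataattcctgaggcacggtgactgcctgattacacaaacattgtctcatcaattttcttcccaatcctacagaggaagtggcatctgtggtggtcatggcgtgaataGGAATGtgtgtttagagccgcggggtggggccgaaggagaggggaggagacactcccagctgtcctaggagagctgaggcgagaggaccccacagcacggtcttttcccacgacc

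Promoters were found for 7 of the 10 genes. The motif, searched on both strands, occurred in 2 of the 7, in Ppp1r14c at -65 and in Ppp1cb at -191 from the gene start, against 14.7% of the 32851 promoters of that length. It does not occur in the windows of Ppp1r3a, Ppp1r3d and Ppp1r3c, which says nothing about sites elsewhere. Of the 2 promoters with the motif, that of Ppp1r14c, which passed as lower, is printed above. That of Ppp1cb, which did not pass, is not. The promoters of the genes that fell together differ in composition. That of Ppp1r3a is 41.0% G or C with 2 CpG dinucleotides, and that of Ppp1r3d is 77.0% with 45. Ppp1r3c has 65.3% with 26 CpG, and the medians over all promoters are 52.7% and 7.

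The 3 catalytic subunits differed little. Ppp1ca, the alpha isoform, stood at 7.03, 6.84 and 6.94 in icKO arrays and 7.17, 7.09 and 7.13 in control arrays. The difference of -0.20 ± 0.09 did not pass (adjusted p = 0.131), and its 95% interval ran from -0.42 to 0.03. Ppp1cb, the beta isoform, which also forms myosin phosphatase, had 4.78, 4.65 and 4.69 in icKO arrays and 5.0, 4.91 and 4.95 in control arrays. That difference was -0.25 ± 0.09 (adjusted p = 0.0618, 95% interval -0.46 to -0.03), so every icKO value of both isoforms lay below every control value without passing the test.

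Ppp1cc, the gamma isoform, has 3 probes. The brightest, A_55_P1961255, read 5.14, 5.13 and 5.17 in icKO arrays and 5.39, 5.40 and 5.42 in control arrays. The spread within each group was a small part of the gap of -0.26 ± 0.08 (adjusted p = 0.0436), or 1.20-fold lower. The other probes, A_52_P540434 and A_55_P2077826, differed by -0.37 (adjusted p = 0.0209) and -0.32 (adjusted p = 0.0337), again with no overlap. With median scaling neither passed (-0.21, adjusted p = 0.218, and -0.16, adjusted p = 0.377). A_52_P540434 also missed the threshold without control 2, control 3 or icKO 2 (adjusted p = 0.0584 to 0.0674), and A_55_P2077826 with any 1 array left out (adjusted p = 0.0583 to 0.101). RefSeq lists 1 similarly named copy of Ppp1cc, which has no probe here, and whether Ppp1cc probes also bind it was not tested.

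The direction of these small offsets depended on the scaling. With arrays set to bright spike-in controls the differences were 0.24 for Ppp1ca, 0.19 for Ppp1cb and 0.18 for Ppp1cc, none of which passed, and with median scaling they were -0.04, -0.09 and -0.10. The Ppp1cc call was lost in 13 alternatives, among them the omission of any 1 array (adjusted p = 0.0722 to 0.124), and its sign turned in 2 more, out of 20. Between isoforms the shifts on the same array, before quantile normalization, were 0.05 ± 0.02 for Ppp1ca against Ppp1cb, 0.06 ± 0.06 for Ppp1ca against Ppp1cc and 0.01 ± 0.05 for Ppp1cb against Ppp1cc.

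Among the inhibitors, Ppp1r1a, inhibitor-1 and the classical target of protein kinase A in heart, gave no usable level. Its single probe was well above background on 0 of 6 arrays, at processed signals of 6.13, 5.70 and 5.76 in icKO arrays and 6.46, 5.27 and 3.74 in control arrays, so no comparison was made. Ppp1r1b, its close relative DARPP-32, best known from striatal neurons, was dim but measured in control arrays. It stood at -3.44, -3.40 and -3.78 in icKO arrays and at -2.39, -2.71 and -2.40 in control arrays. All icKO values were lower, and the probe was well above background on 1 of 3 icKO and 3 of 3 control arrays, so it entered the test through the control arrays. The measured difference was -1.04 ± 0.15 (adjusted p = 0.00278), and -0.54 with normexp background correction. It rests on icKO arrays mostly not well above background, and the gene was not tested when all 6 arrays had to be well above it.

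Ppp1r14c encodes KEPI, an inhibitor that gains potency when protein kinase C phosphorylates it. Its level was 2.10, 2.38 and 2.49 in icKO arrays, against 2.89, 2.98 and 2.89 in control arrays. The control arrays lay close together and above all icKO arrays, and the difference was -0.60 ± 0.12 (adjusted p = 0.0104), or 1.51-fold lower. The direction held in all 20 alternatives, but the call was lost in 4. These were median scaling (-0.44, adjusted p = 0.0678), spike-in scaling (-0.24, adjusted p = 0.257) and bright spike-in scaling (-0.15, adjusted p = 0.525). The last was no filter on dim probes (adjusted p = 0.0518).

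Ppp1r2, inhibitor-2, binds the catalytic subunit directly, and the complex becomes active when glycogen synthase kinase 3 phosphorylates the inhibitor. Its brightest probe, A_55_P1959869, read 3.34, 2.68 and 2.91 in icKO arrays and 2.31, 2.39 and 2.57 in control arrays. The icKO values were all higher, with icKO 2 just above control 3, and the difference was 0.55 ± 0.18 (adjusted p = 0.0490), or 1.47-fold higher. With the mean of the gene's kept probes it was 0.21 (adjusted p = 0.524), and with bright spike-in scaling 0.99 (adjusted p = 0.0107). Without icKO 1 it was 0.37. The call was lost in 11 of 20 alternatives, among them every omission of 1 array other than icKO 2 (adjusted p = 0.0725 to 0.132).

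The other Ppp1r2 probes did not all follow. A_55_P2181288 differed by 0.51 (adjusted p = 0.0644) with separate groups, and A_55_P2111735 by 0.06 (adjusted p = 0.801). A_55_P1960496 gave 0.32, -1.80 and 0.23 in icKO arrays and -0.28, -0.05 and -0.11 in control arrays. Here icKO 2 lay far below every other array, so that the difference was -0.27 ± 0.56 with it and 0.42 (adjusted p = 0.0486) without it. A_55_P2103145 was well above background on 2 of 3 icKO and 1 of 3 control arrays and was not tested. On 5 of 5 probes icKO 1 was the highest of all arrays and icKO 2 the lowest of its group. RefSeq lists 8 similarly named copies of Ppp1r2, of which 2 have a probe here, neither of them well above background anywhere. Whether Ppp1r2 probes also bind such copies was not tested.

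**Figure D2:**
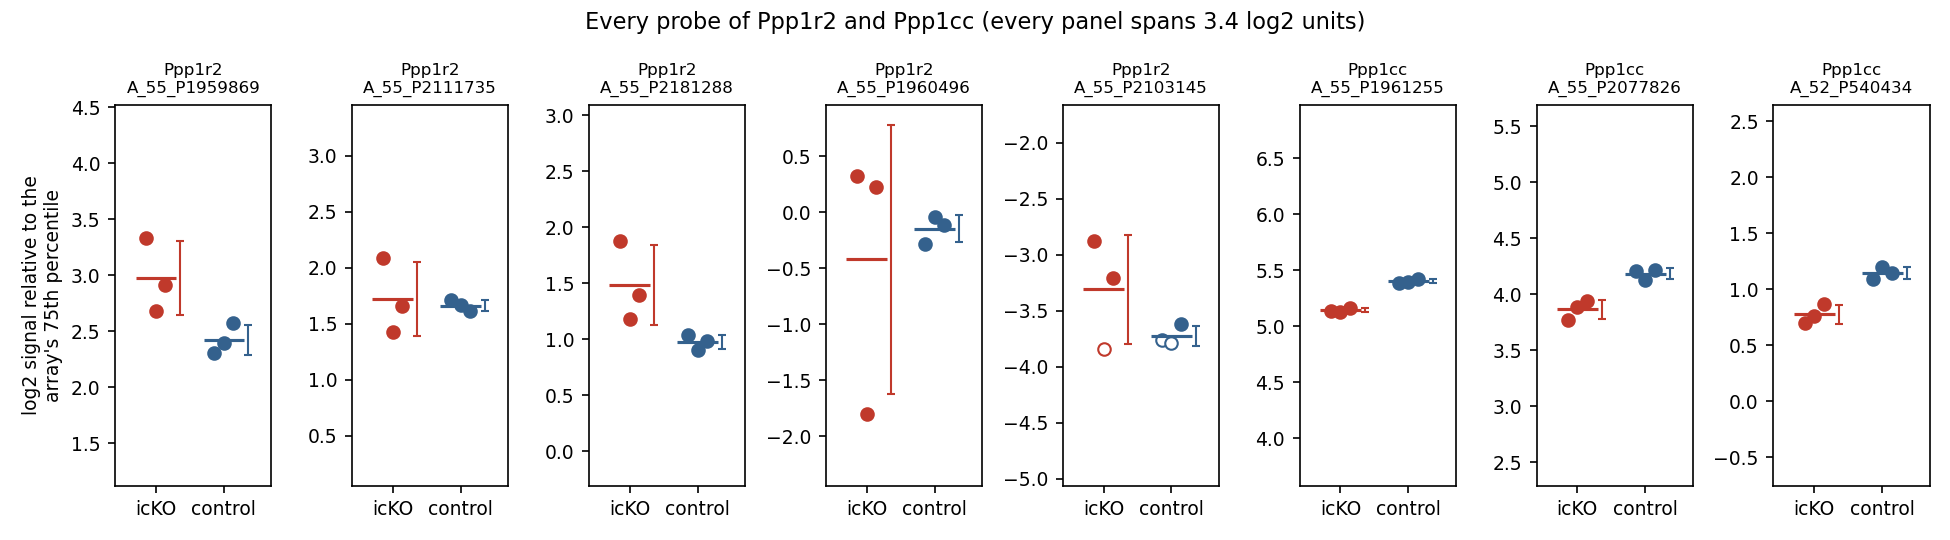
Every probe of Ppp1r2 (5 panels) and Ppp1cc (3 panels) on the 6 arrays, as log2 signal relative to the array's 75th percentile, icKO (red) left of control (blue), with mean and SD (n = 3 each); open points were not well above background. The Ppp1cc probes keep the groups apart in all 3 panels, while on A_55_P1960496 of Ppp1r2 the icKO 2 point at -1.80 stands alone.

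Over probes, 14 of the 16 were measured, and 9 passed, 2 higher and 7 lower, against 44.3% of the 26169 probes tested. The lower ones include the Ppp1r1b probe, kept only through the control arrays, with 1 of 3 icKO arrays well above background. Relative to the catalytic subunits of the same arrays, the brightest Ppp1r2 probe stood higher in icKO by 0.75 ± 0.17 against Ppp1ca, 0.80 ± 0.18 against Ppp1cb and 0.81 ± 0.20 against Ppp1cc. The other kept Ppp1r2 probes, which differed between groups by 0.51, 0.06 and -0.27, were not set against the catalytic subunits. For Ppp1r14c against Ppp1cb the shift was -0.35 ± 0.16. All 4 separated the groups (exact permutation p = 0.1 each, the smallest possible).

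Scaling bears on the whole comparison because icKO arrays were brighter, with a 75th percentile signal of 312, 348 and 292, against 189, 233 and 215 in control arrays. Median scaling moved the median of all features by 0.16 and bright spike-in scaling by 0.44. Higher calls made up 35.8% of all calls as reported, 43.6% with quantile normalization, 54.6% with median scaling and 81.0% with bright spike-in scaling. With median scaling 2 PP1 genes passed as higher and 3 as lower, against 19.7% and 16.4% of all features. With bright spike-in scaling the counts were again 2 and 3, against 32.2% and 7.54%. In both, Ppp1r3c and Ppp1r2 were the higher genes, and Ppp1r3a, Ppp1r3d and Ppp1r1b the lower ones. Ppp1r1b was kept through the control arrays, with 1 of 3 icKO arrays well above background.

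**Figure D3:**
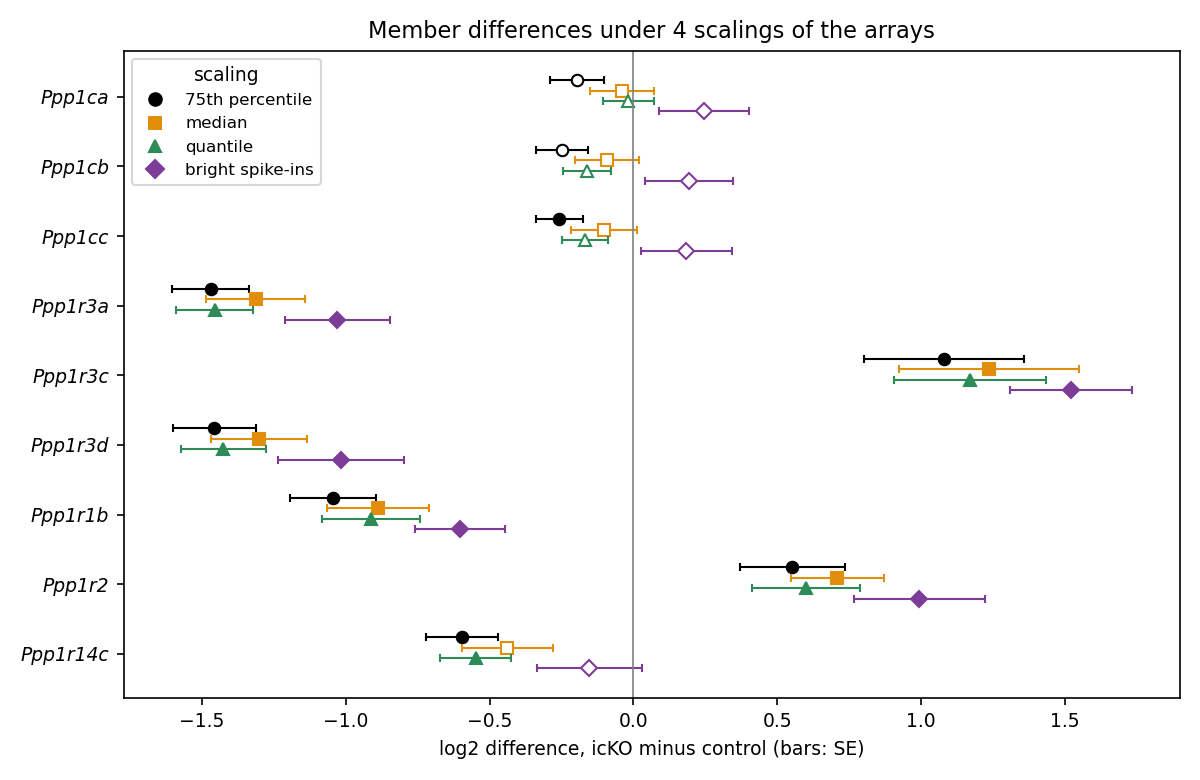
Differences (log2, icKO minus control, bars SE) of the 9 tested PP1 genes with arrays scaled to the 75th percentile, the median, by quantile normalization or to bright spike-in controls; filled points passed an adjusted p of 0.05. Ppp1r3a, Ppp1r3d and Ppp1r1b stay left of 0 and Ppp1r3c and Ppp1r2 right of it under all 4, whereas the catalytic subunits cross 0 with the spike-in controls (0.24 for Ppp1ca). Ppp1r1b was well above background on 1 of 3 icKO arrays.

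Cell type markers moved with genotype in the same arrays. All 10 cardiomyocyte markers were well above background on every array and 8 were lower (over all features 28.7% were lower and 16.0% higher). With median scaling 5 were lower and 0 higher. With quantile normalization, the authors' value table or bright spike-in scaling 2 were lower and 1 higher. The summed signal of the 10 was 6630 to 7304 times the array's own 75th percentile in icKO arrays against 10020 to 12170 in control arrays. Fibroblast markers (7 of 8 higher) summed to 604 to 774 in icKO arrays and 243 to 395 in control arrays, and macrophage markers (6 of 7 higher) to 73.0 to 95.7 in icKO arrays and 32.7 to 45.4 in control arrays. Of 8 skeletal muscle genes, Myh4, Actn3 and Mylpf were not well above background on any array, nor were 7 of 8 adipocyte markers. The 3 skeletal muscle genes tested went both ways. Tnni2 differed by -1.96 (adjusted p = 0.000857) and Pvalb by -0.32 (adjusted p = 0.209), both measured on every array. Tnnt3 rose by 1.36 (adjusted p = 0.00309), with 1 of 3 control arrays well above background. Fewer cells of a type and less RNA per cell cannot be told apart in such bulk samples.

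Set against the mean log2 level of the 10 cardiomyocyte markers on the same array, Ppp1r3a was lower in icKO by a log2 difference of -0.94 ± 0.17, Ppp1r3d by -0.93 ± 0.22 and Ppp1r1b by -0.51 ± 0.16. Ppp1r3c was higher by 1.61 ± 0.32 and Ppp1r2, on its brightest probe alone, by 1.08 ± 0.19, and the catalytic subunits by 0.33 ± 0.04 (Ppp1ca), 0.28 ± 0.04 (Ppp1cb) and 0.27 ± 0.07 (Ppp1cc). Each of these separated the groups (exact permutation p = 0.1). Ppp1r14c did not, at -0.06 ± 0.16 (exact p = 0.8). All these shifts were taken before quantile normalization, which can move differences between genes on the same array. With it 2 of the cardiomyocyte markers were lower and 1 higher, and the shifts were not recomputed. The Ppp1r1b value is weaker ground, since its probe was kept through the control arrays and was well above background on 1 of 3 icKO arrays. The cardiomyocyte markers themselves differed by -1.03 (Tnni3) to 0.10 (Actn2), so their mean cannot stand for the share of cardiomyocytes. Markers of other cell types were not set against the PP1 genes. The part of cell composition in the PP1 differences was not tested.

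The remaining PP1 partners gave a mixed picture. Of 36 other PP1 genes 30 were tested, and 6 passed as higher and 7 as lower, with a median difference of 0.04. Over all features 16.0% passed as higher and 28.7% as lower. With bright spike-in scaling those shares, against which the lists below are also to be read, were 32.2% and 7.54%. Among other glycogen-targeting genes, Ppp1r3b, the subunit prominent in liver, fell by 0.61 on the log2 scale (adjusted p = 0.00905), the only 1 of 3 to pass, and no longer did with bright spike-in scaling (-0.17, adjusted p = 0.438). Ppp1r3g differed by -2.73 ± 0.93 (adjusted p = 0.0537) with only 1 of 3 icKO arrays well above background, and Epm2a, the glycogen phosphatase laforin, by 0.05.

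Of 5 other inhibitors tested 3 passed as lower and 0 as higher, among them Ppp1r14a (-0.57), the myosin phosphatase inhibitor CPI-17, and Ppp1r37 (-0.48), neither of which passed with median scaling (adjusted p = 0.0551 and 0.0511). With bright spike-in scaling the inhibitor list had 1 higher and 0 lower, against 32.2% and 7.54% of all features. As reported, those shares were 16.0% and 28.7%. The myosin-targeting subunits had 2 of 4 higher, Ppp1r12c (0.97 ± 0.18) and Ppp1r12a (0.54 ± 0.11), which direct Ppp1cb to myosin. Among 18 other scaffolds and partners, 4 were higher and 3 lower (11 and 0 with bright spike-in scaling). Ppp1r15a, the stress-induced subunit GADD34, rose by 1.26 ± 0.19 (adjusted p = 0.00301) and Ppp1r21 by 1.13 ± 0.12 (adjusted p = 0.000984). Ppp1r9a, neurabin, differed by -0.59 and Phactr2 by -0.43, both past the threshold here and short of it with median scaling (adjusted p = 0.0502 and 0.226). Phactr2 also missed it without control 1, control 3 or icKO 3 (adjusted p = 0.0573 to 0.0764). Hspb6, a small heat shock protein that binds PP1, differed by 0.10 (adjusted p = 0.470) on its brightest probe, and passed as higher with quantile normalization, the authors' value table and both spike-in scalings.

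**Figure D4:**
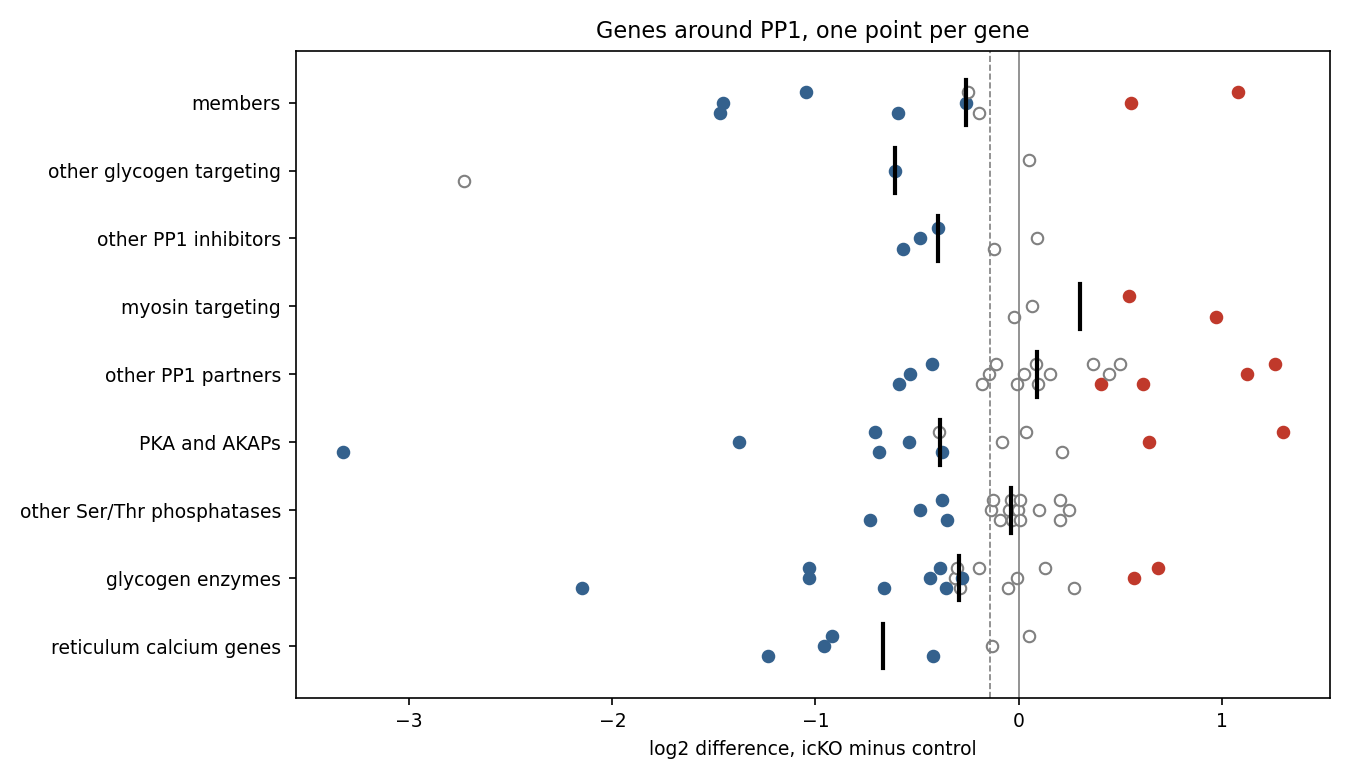
One point per gene: log2 difference, icKO minus control, for the PP1 members and the neighbouring gene lists, with filled red points higher and filled blue points lower at an adjusted p of 0.05 and open points not passing. Thick ticks are list medians (-0.26 for the members, -0.67 for the reticulum calcium genes) and the dashed line is the median of all features (-0.14).

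The kinase that opposes PP1 was tested through 12 protein kinase A and anchoring genes. Of these 2 were higher and 6 lower (median -0.38), against 16.0% and 28.7% of all features. Among the lower, Akap5 (-3.33 ± 0.70) was well above background on 1 of 3 icKO arrays and had no value on control 2. With probes required to be well above background on all 6 arrays, 5 were lower. Prkar1a, a regulatory subunit, rose by 1.30 ± 0.18 and the anchor Akap13 by 0.64 ± 0.11. The catalytic subunit Prkaca differed by -0.71 ± 0.10 (adjusted p = 0.00264) and the kinase inhibitor Pkia by -1.38 ± 0.23 (adjusted p = 0.00471). With bright spike-in scaling 3 were higher and 2 lower, and Prkaca no longer passed (-0.27, adjusted p = 0.216).

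Genes of glycogen metabolism, where PP1 has substrates, gave 2 of 18 higher, 8 lower and 8 not passing (median -0.29). Over all features 16.0% were higher and 28.7% lower. With median scaling 2 of these genes were higher and 3 lower, against 19.7% and 16.4% of all features. Pygm, muscle glycogen phosphorylase, fell by 1.03 on the log2 scale (adjusted p = 0.000604) and Phkg1, a phosphorylase kinase catalytic subunit, by 2.15 (adjusted p = 0.000966). Pygl, the liver phosphorylase, rose by 0.69 and Stbd1, a glycogen-binding protein, by 0.57 (adjusted p = 0.0483), while muscle glycogen synthase Gys1 differed by -0.05 ± 0.13 and turned sign in 9 alternatives. The Stbd1 call was lost with any 1 array left out other than icKO 1 (adjusted p = 0.0883 to 0.128). Under bright spike-in scaling the list had 4 higher and 3 lower.

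Of 6 sarcoplasmic reticulum calcium genes 4 were lower and 0 higher (median -0.67), against 28.7% and 16.0% of all features. Hrc, which binds calcium in the reticulum lumen, differed by -1.23 ± 0.085 (adjusted p = 0.000297), the calcium pump Atp2a2 by -0.96 ± 0.10 (adjusted p = 0.000903) and phospholamban, Pln, by -0.92 ± 0.10 (adjusted p = 0.00114). The release channel Ryr2 differed by 0.05 ± 0.10. On the same arrays Ppp1cb stood higher against Pln by 0.67 ± 0.10 in icKO, and Ppp1r3a lower against Pln by a log2 difference of -0.55 ± 0.17 (exact permutation p = 0.1 each). With bright spike-in scaling 2 of the 6 were lower and Pln was at -0.48 (adjusted p = 0.0789).

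Other phosphatase families served as a comparison. Of 17 genes of other serine/threonine phosphatases 4 were lower and 0 higher (median -0.04), against 28.7% and 16.0% of all features. Ppp2r3a (-0.73 ± 0.10) and Ppp2r5d (-0.49 ± 0.08), both subunits of protein phosphatase 2A, passed as lower, and the catalytic subunit Ppp2ca differed by -0.05 ± 0.13. With bright spike-in scaling 7 were higher and 0 lower, Ppp2r3a at -0.29 and Ppp2r5d at -0.04.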

How the data were processed

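Cy3-labelled ventricle RNA was hybridised to one-colour Agilent arrays (design 028005, build mm9, per the file headers), 3 icKO and 3 control. The deposited files give spot intensity, background-subtracted by Feature Extraction 11.0.1.1, as the file headers state (the submitters' processing notes give version 9.1). The authors' value table, also intensity, served as an alternative. No spot was saturated, 47.9% to 50.9% of probes were well above background, and the number of arrays limits precision.

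Processed signals were taken to log2 less the 75th percentile of an array's non-control probes, without outlier-flagged spots. A probe was kept if all 3 arrays of either group showed it well above background (26169 of 55681). Names came from RefSeq accessions (26582 probes matched), and each gene stands for its brightest kept probe. The groups were compared with limma 3.58.1 in R 4.3.3 over 22295 features with Benjamini-Hochberg adjustment at 0.05, without a replicate block, since same-numbered arrays did not deviate together (correlations -0.13 to 0.00). The code was tested on simulated data.

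The 10 genes and the gene lists were chosen with earlier results of these data known. Named are all 10, Tead1, a fixed set (Pln, Atp2a2, Ryr2, Hspb6, Gys1, Pygm, Prkaca, Ppp2ca) and up to 2 risen and 2 fallen genes per list by smallest p. Ppp1r3g, Epm2a, Akap5 and the individual marker genes were added with their values seen. Marker lists for endothelium (1 of 8 higher, 3 lower), smooth muscle (1 and 1 of 8), skeletal muscle (1 and 1 of 3 tested) and neuron (3 and 0 of 4 tested) were also run. Alternatives covered background correction (normexp, offset 50, on median signals), scaling, probe filters, probe choice, variance models, slide row and omission of each array.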

Additional observations from a re-analysis of the deposited data

How the results depend on the processing

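Ppp1r3a and Ppp1r3d kept direction and call in all 20 alternatives. Ppp1r1b had no value when probes had to be well above background on all 6 arrays. There 6 of 8 PP1 genes passed, 4 of them lower, against 45.4% of 19918 features. The features called numbered 9980 of 22295 (44.8%). With no filter on dim probes they numbered 6123 of 49244 (12.4%), and with 1 array left out 7554 to 9031 (33.7% to 40%). The 7 PP1 genes called, of 9 tested, became 3 of 10 with no filter and 4 to 5 of 9 with 1 array left out (4 without icKO 3). The higher ones, 2 as reported, became 0 with no filter, 0 to 1 with 1 array left out, and 1 with outlier spots kept, with the mean of a gene's probes, with array weights and with a slide row block. The lower ones, 5 as reported, became 3 with median, spike-in and bright spike-in scaling and with no filter. Calls over the gene lists became 25 with median scaling and 23 with no filter. The numbers do not pair the arrays. With a replicate block 7885 features (35.4%) and 4 PP1 genes passed, 0 of these genes higher, Ppp1r3c having an adjusted p of 0.0621.

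The sign turned as follows, each as a log2 difference, icKO minus control. With spike-in scaling and bright spike-in scaling (chosen after seeing the data), the values were 0.15 and 0.24 for Ppp1ca, 0.10 and 0.19 for Ppp1cb, 0.0943 and 0.18 for Ppp1cc (also probe A_55_P1961255), 0.0322 and 0.12 for probe A_55_P2077826, 0.0796 and 0.17 for probe A_55_P1960496, 0.30 and 0.39 for Gys1 and 0.30 and 0.39 for Ppp2ca. With bright spike-in scaling alone they were 0.0434 for Tead1, 0.0157 for Phactr2 and 0.0707 for probe A_52_P540434. With normexp, quantile normalization, median scaling and the authors' value table, Gys1 gave 0.0557, 0.0354, 0.105 and 0.0369, and Ppp2ca 0.0763, 0.0292, 0.108 and 0.0276. Gys1 also gave 0.0301 with the mean of its probes. Ryr2 gave -0.0012 and probe A_55_P2111735 -0.0055 with array weights, and that probe -0.0154 with a slide row block. With 1 array left out the differences ran from -0.123 to 0.0439 for Gys1, from -0.169 to 0.0303 for Ppp2ca, from -0.0178 to 0.084 for Ryr2, from -0.12 to 0.208 for probe A_55_P2111735 and from -0.643 to 0.42 for probe A_55_P1960496. The cause was not tested. Ppp1ca (adjusted p = 0.0478) and Ppp1cb (0.0218) passed as lower with a trended, robust variance model, and Ppp1cb (0.0364) with array weights. A slide block could not be run with 1 slide.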
